A study of Homo sapiens with 8 samples.

Results

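Knockdown of BEX2 by the second hairpin was studied by setting the 2 arrays of shBEX2-2 cells against the 2 arrays of shControl cells, which are 4 of the 8 arrays of the series and were taken by the vector named in their labels. HuCCT1 is an established cell line from a human intrahepatic cholangiocarcinoma, a cancer of the bile ducts, and every array held its total RNA, labelled with Cy3 on a single-colour Agilent expression array. The shBEX2-2 cells are a subline that carries a retroviral vector for a short hairpin RNA against BEX2, and the shControl cells carry a control vector that the labels name without its target. The other arrays came from the subline with the first hairpin, shBEX2-1 (2 arrays), and from a second control vector, shNontarget (2 arrays). Each subline stands for 1 hairpin. In the paper's methods the 2 BEX2 target sequences are reverse complements of each other over nearly their whole length. The sublines thus do not stand for separate target sites. Whether both arrays with the same vector come from different cultures is not stated, so that p-values measure the spread between these arrays, which may be technical. The study addressed the role of BEX2 in stem cell properties of cholangiocarcinoma cells, and these arrays set knockdown against control cells.

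BEX2 belongs to a family of small X-linked proteins (brain expressed X-linked) that bind other proteins and have no known enzyme activity. In tumour cells the balance between quiescence and division is set at the entry into the cycle, where cyclin-dependent kinases release E2F transcription factors from the retinoblastoma proteins and E2F then switches on the genes of DNA replication. Genes of mitosis follow later in the cycle through MuvB and FOXM1 complexes, and stress programmes such as the ATF4 and interferon responses run beside the cycle and can be switched on in the same cells.

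Signals are given as log2 of the scanner's processed intensity minus the log2 of that array's 75th percentile, so that 0 is the 75th percentile of the array and negative values are dimmer. That percentile was 730 and 838 on the shControl arrays and 618 and 631 on the shBEX2-2 arrays, between 62.3% and 63.9% of spots were well above background on these arrays, and no spot was saturated. The slide and its scan were common to all arrays, but row 1 held the controls and row 2 the BEX2 knockdowns, so that position and group cannot be told apart. Bile duct markers were present, with 14 of 16 well above background on each of the 4 arrays (ONECUT1 and SPP1 on none), and their summed linear level was 962 and 909 in shControl and 938 and 932 in shBEX2-2 cells. Of the hepatocyte markers 6 of 12 were well above background on some array but ALB, APOB and TTR on none, and the fibroblast and endothelial lists had 4 of 10 and 4 of 8, with PDGFRA, PDGFRB, PECAM1 and KDR on none. Well above background on all 4 arrays were the hepatocyte markers CPS1 and SERPINA1 and the fibroblast markers ACTA2, COL1A1, DPT and LUM. So were the endothelial markers CDH5, ESAM and VWF and the leukocyte markers CD14, CD68, CSF1R and PTPRC. The leukocyte list, with 7 of 9 measured and the B cell gene MS4A1 on none, had summed levels of 1.16 and 1.14 in shControl and 1.99 and 1.95 in shBEX2-2 cells, with the macrophage gene CD68 1.07 higher on the log2 scale, and its part in the results was not tested. As arrays read bulk RNA, fewer cells that use a gene and less of its RNA per cell cannot be told apart.

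The targeted gene was low in all cells and lower in shBEX2-2 cells. The single BEX2 probe (A_33_P3245178, in hg19 on chromosome X from 102564430 to 102564489) had intensities of 71.0 and 55.7 on the shControl arrays and 20.4 and 26.0 on the shBEX2-2 arrays. All 4 readings were well above background and the groups did not overlap. On the normalised scale BEX2 fell by 1.12, or 2.18-fold, with a 95% confidence interval of -1.74 to -0.51 (limma, adjusted p = 0.0126). Leaving out shBEX2-2 replicate 1 gave BEX2 an adjusted p of 0.0719 by limma, and with normexp background correction the log2 fold change was -0.39 (adjusted p = 0.0641 by limma). The first hairpin gave BEX2 signals of -5.21 and -5.54, below the -4.92 and -4.60 of shBEX2-2, a difference of 0.61 that did not pass the test (limma, adjusted p = 0.211). With 2 arrays against 2, an exact permutation test of 1 gene has a smallest two-sided p of 1 in 3, so that all p-values given here come from limma over all genes.

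The other BEX genes on chromosome X that could be tested, BEX3 and BEX5, did not fall with BEX2. BEX3, named NGFRAP1 on the array and an adaptor of the neurotrophin receptor p75, had signals of 4.40 and 4.35 in shControl and 4.38 and 4.43 in shBEX2-2 cells, which overlapped, and a log2 fold change of 0.03 (limma, adjusted p = 0.785). BEX5 had a log2 fold change of 0.31 (limma, adjusted p = 0.0666). BEX1 was well above background on 1 array, a shControl array, and BEX4 on none, so that neither was tested. Of the related TCEAL genes, which resemble an elongation factor, TCEAL4 was lower (-0.34, adjusted p = 0.00851 by limma), and TCEAL5 was higher (0.65, adjusted p = 0.013 by limma). In all, 10 of the 13 BEX and TCEAL genes on the array could be tested, with 2 higher, 2 lower (BEX2 itself and TCEAL4) and a median of 0.02.

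Across the array 20970 of 34809 gene names could be tested, and the change was broad. By limma 4727 genes (22.5%) were higher and 4910 (23.4%) lower in shBEX2-2 cells at an adjusted p under 0.05, with a median log2 fold change of -0.0036 over all genes. With a fold of at least 2 as well, 1149 genes (5.48%) were higher and 1035 (4.94%) lower. The arrays of the groups did not overlap for 15424 genes (73.6%). In all 46% of the genes passed the test. A list with about 22.5% of its genes higher and about 23.4% lower is thus like all genes. The counts of each list are to be read against these shares. The lists were compiled by hand with earlier results of these data known, and their counts and medians are descriptions. A gene past 2-fold is one with a log2 fold change of at least 1 or at most -1 that also passed the test. With the replicate number as a block 10736 genes passed.

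**Figure D1:**
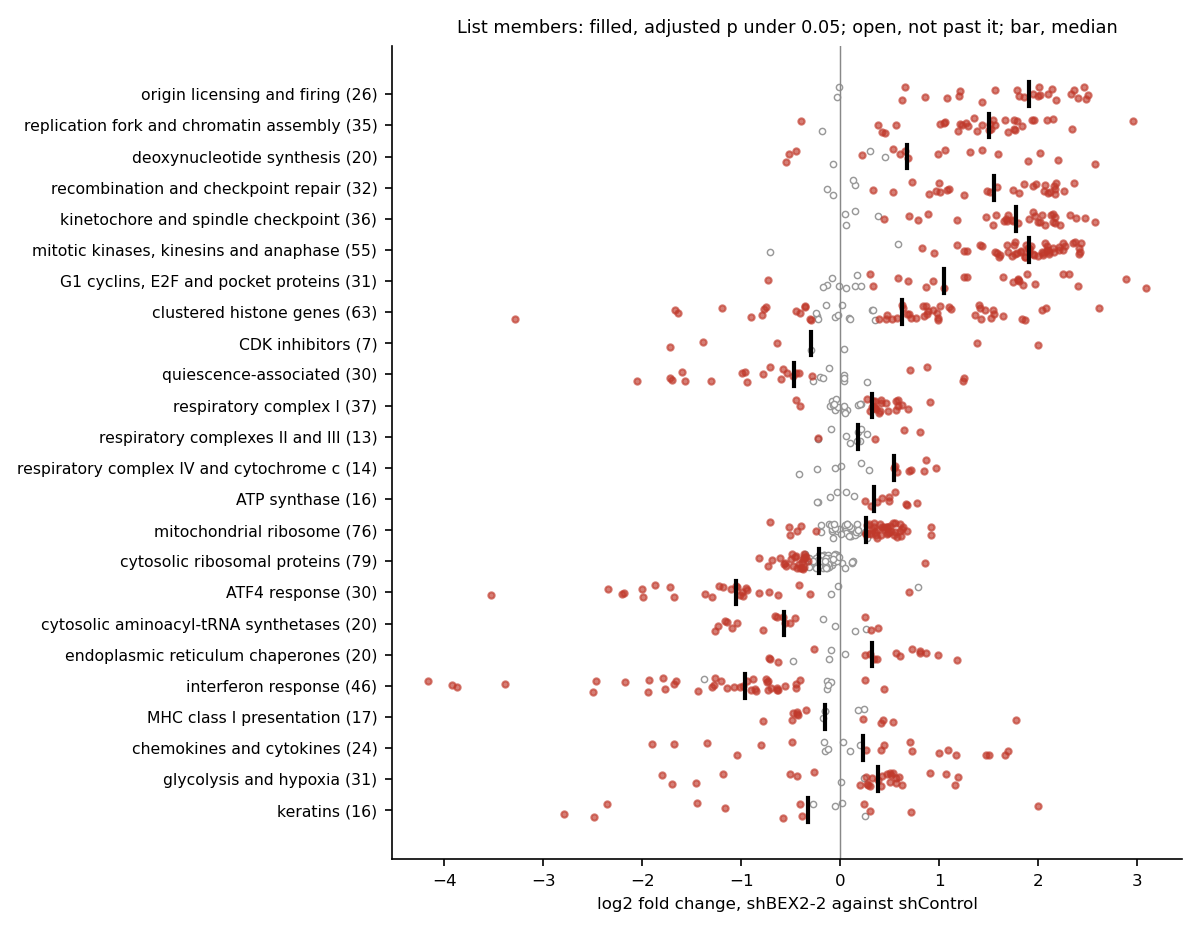
Log2 fold change of the members of 24 gene lists, shBEX2-2 against shControl; each point is 1 gene (filled, adjusted p under 0.05 by limma; open, not past it), the black bar is the list's median, and the number of genes tested stands in parentheses. Replication and mitosis lists lie to the right of 0, with medians of 1.91 for origin licensing and 1.91 for the mitotic list, and the ATF4 and interferon lists to the left, with medians of -1.05 and -0.96.

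Genes that load and fire replication origins were higher almost throughout. Of 26 genes of the origin recognition complex, the MCM helicase, GINS and their loaders, 24 rose and none fell, with a median of 1.91. Past 2-fold were 21 of the 24. The groups did not overlap for 24 of the 26, against 73.6% of all genes. CDC45, part of the active replicative helicase, had signals of 0.53 and 0.52 in shControl and 3.0 and 3.03 in shBEX2-2 cells. The shBEX2-2 arrays were far above both control arrays, a log2 fold change of 2.49 with a standard error of 0.06 (adjusted p = 1.88e-05 by limma). MCM10, which joins the helicase to the polymerase, went from -3.42 and -3.71 to -1.07 and -1.04 (log2 fold change 2.51), and GINS2 and ORC1 rose by 2.36 and 2.33. The members that did not pass were ORC4 and ORC5 (-0.01 and -0.03), while MCM7 rose by 0.86.

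The fork itself changed likewise, with 33 of 35 fork and chromatin assembly genes higher, 29 of them past 2-fold, 1 lower and a median of 1.50. CLSPN, the checkpoint adaptor claspin, read -3.66 and -3.80 in shControl and -0.53 and -0.99 in shBEX2-2 cells, and its log2 fold change of 2.96 with a standard error of 0.17 (adjusted p = 6.77e-05 by limma) was the largest of the list. PCNA, the sliding clamp of the polymerases, went from 1.44 and 1.44 to 3.26 and 3.29 (log2 fold change 1.84). HELLS, a chromatin remodeller of newly made DNA, rose by 2.35, and UHRF1, which guides maintenance methylation, by 1.96. The polymerase delta subunit genes POLD4 and POLD2 did not rise, with POLD4 at -0.40 (past the test) and POLD2 at -0.18 (not past it).

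Synthesis of deoxynucleotides was more mixed, with 14 of 20 genes higher, 8 of them past 2-fold, 3 lower and a median of 0.67. TYMS, thymidylate synthase, had signals of 0.57 and 0.56 in shControl and 3.09 and 3.20 in shBEX2-2 cells, a log2 fold change of 2.58 with a standard error of 0.07 (adjusted p = 1.88e-05 by limma). Thymidine kinase TK1 and the ribonucleotide reductase subunits RRM2 and RRM1 rose by 2.20, 2.02 and 1.60. RRM2B, the p53-inducible subunit used outside S phase, fell by 0.44, and DCTD, dCMP deaminase, fell by 0.55. In the recombination and checkpoint list 28 of 32 genes rose, 23 past 2-fold, and none fell (median 1.55). BRCA1, which guides recombination, went from -0.89 and -1.0 to 1.20 and 1.14 (log2 fold change 2.12), while the kinase ATR was at 0.13 and PALB2 at -0.07, not past the test.

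Mitotic genes shifted almost uniformly. Of 55 mitotic kinases, kinesins, condensins and anaphase genes 53 rose, 51 of them past 2-fold, and none fell, with a median of 1.91. Of 36 kinetochore and spindle checkpoint genes 32 rose and none fell, 28 past 2-fold, with a median of 1.77. MKI67, whose protein Ki67 coats mitotic chromosomes and marks cycling cells, read 0.58 and 0.56 in shControl and 3.07 and 2.90 in shBEX2-2 cells. Its log2 fold change was 2.41 (standard error 0.08, adjusted p = 1.91e-05 by limma), and its other probes read 2.02 and 2.22. CDK1, the mitotic kinase, named CDC2 on the array, went from 0.44 and 0.29 to 2.43 and 2.41 (log2 fold change 2.06), and its partners CCNA2 and CCNB1 rose by 2.35 and 1.83. SPC24 of the NDC80 complex, which holds microtubules, went from -4.55 and -4.73 to -2.18 and -1.95 (log2 fold change 2.58). The mitotic genes that did not pass the test were the condensin gene NCAPH (0.59) and KIF18B (-0.71), whose shControl arrays lay far apart at -1.04 and -6.38.

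Among the regulators of entry into the cycle 22 of 31 genes rose, 16 past 2-fold, and 1 fell (median 1.05). E2F2 read -1.72 and -1.60 in shControl and 1.43 and 1.43 in shBEX2-2 cells, a log2 fold change of 3.09 with a standard error of 0.07 (adjusted p = 1.88e-05 by limma). E2F1 went from -1.35 and -1.46 to 1.51 and 1.46 (log2 fold change 2.89), and the atypical repressor E2F8 rose by 2.41. The cyclins split by partner, as CCNE1 and CCNE2, which act with CDK2, rose by 1.80 and 1.96, whereas CCND1 was at 0.17 (limma, adjusted p = 0.0653), CDK4 at -0.13 and CDK6 at 0.06, none past the test. RBL1 (p107) rose by 1.85 and RB1 by 0.59, while RBL2 (p130), the pocket protein of resting cells, was at -0.17 and not past the test.

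The inhibitors of cyclin-dependent kinases moved in opposite directions. CDKN1C (p57) read 0.04 and 0.10 in shControl and -1.59 and -1.72 in shBEX2-2 cells, a log2 fold change of -1.72 with a standard error of 0.09 (adjusted p = 4.12e-05 by limma). CDKN2B (p15) fell by 1.39, and CDKN2A, whose locus encodes p16 and p14ARF and which was among the bright genes with signals of 4.93 and 4.80 in shControl cells, fell by 0.64. CDKN2D (p19) rose from 0.43 and 0.23 to 2.49 and 2.15 (log2 fold change 1.99), and CDKN2C (p18) rose by 1.38, both E2F-dependent in other cells. CDKN1A (p21) at -0.29 (limma, adjusted p = 0.142) and CDKN1B (p27) at 0.03 (limma, adjusted p = 0.736) did not pass the test, and the sign of CDKN1B turned with quantile normalization (-0.04).

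Of 30 genes associated with quiescence, 18 fell and 4 rose, 6 and 2 of them past 2-fold, with a median of -0.46. The largest falls were those of TP53INP1 (-2.05, other probe -0.84), CDKN1C, HES1 (-1.70), the MYC antagonist MXD4 (-1.59) and the PI3K inhibitor PIK3IP1 (-1.57). KLF2, which holds T cells and endothelium at rest, and LRIG1, a brake on ERBB receptors, rose by 1.25 and 1.24. The clustered histone genes, most of them read in S phase, had 37 of 63 members higher and 14 lower (median 0.62). The linker histone gene H1-5 read -0.58 and -0.84 in shControl and 1.43 and 1.22 in shBEX2-2 cells (log2 fold change 2.04). H2AC6, named HIST1H2AC on the array, fell from 1.79 and 1.91 to -1.48 and -1.38, but its other probes read -0.99 and -0.09, so that its value is uncertain, and histone genes share sequence that a probe may not tell apart.

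Upstream sequence of these genes was read from the RefSeq promoter table (GRCh38.p14), as the 250 bases before the gene's start, on both strands. Promoters were found for 22 of the 26 origin genes, 31 of the 35 fork genes, 30 of the 36 kinetochore genes and 46 of the 55 mitotic genes. The E2F letters TTTCCCGC, TTTCGCGC, TTTGCCGC and TTTGGCGC were in 27.3% of the origin and 29% of the fork promoters, in 10% of the kinetochore and 6.52% of the mitotic promoters, and in 4.35% of the 11064 promoters of all tested genes. The cell cycle homology region (CHR, TTTGAA) was in 52.2% of the mitotic and 16.7% of the kinetochore promoters, 3.23% of the fork promoters and none of the 22 origin promoters, against 8.74% of all tested genes. The CCAAT box of NF-Y was in 73.9% of the mitotic, 59.1% of the origin, 58.1% of the fork and 53.3% of the kinetochore promoters and in 35.1% of all. A match describes letters and not a site in use. To show both kinds, windows of 60 bases follow, 5′ to 3′ on the gene's strand. They come from the origin gene and the fork gene with the largest rise that hold E2F letters (GINS2 and HELLS) and from the 2 mitotic genes with the largest rise that hold CHR letters (ANLN and MKI67), chosen after their values were seen, with every match of those letters on either strand in capitals.
GINS2 (chr16:85688955-85689014, minus strand): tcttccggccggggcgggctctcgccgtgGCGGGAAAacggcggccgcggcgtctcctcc
HELLS (chr10:94545686-94545745, plus strand): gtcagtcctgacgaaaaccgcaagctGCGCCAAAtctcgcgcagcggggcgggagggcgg
ANLN (chr7:36389802-36389861, plus strand): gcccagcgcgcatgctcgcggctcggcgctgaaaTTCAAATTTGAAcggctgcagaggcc
MKI67 (chr10:128126424-128126483, minus strand): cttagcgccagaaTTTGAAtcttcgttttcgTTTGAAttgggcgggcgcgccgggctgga

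**Figure D2:**
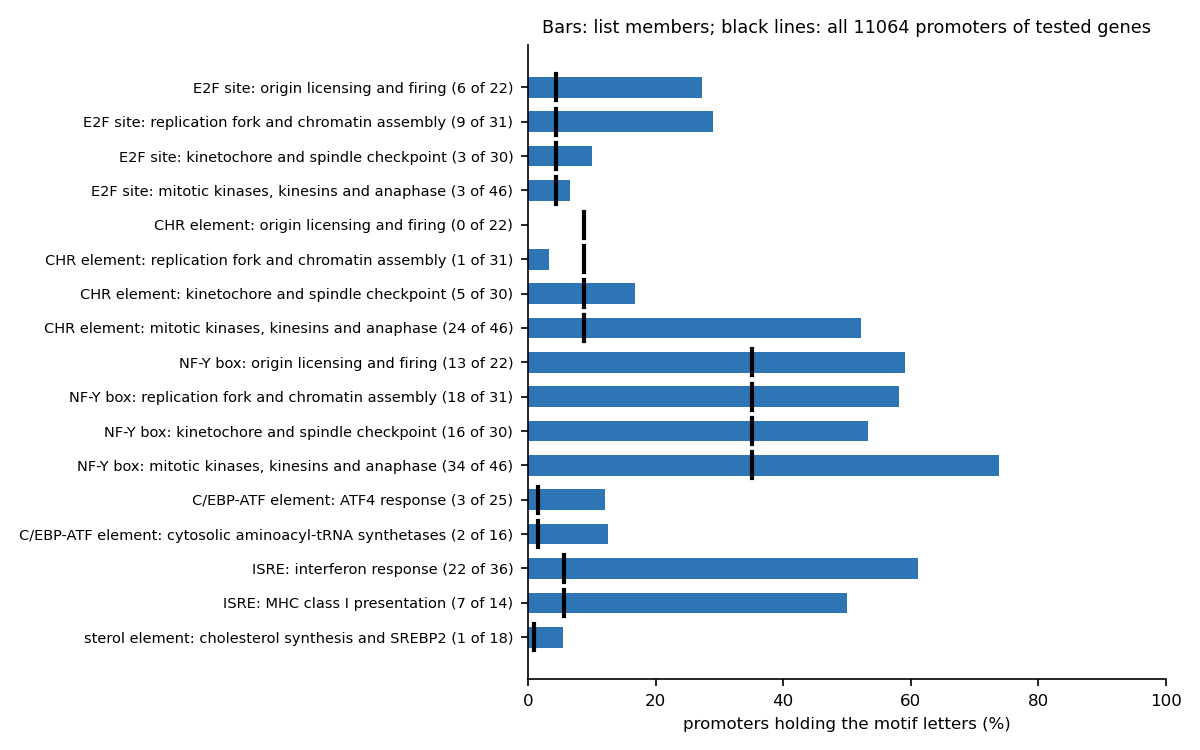
Share of promoters (%, 250 bases before the gene's start) that hold the letters of each motif, for the members of each list (blue bars, with the number of promoters) and for all 11064 promoters of tested genes (black lines); the NF-Y box is CCAAT. E2F letters stand out in the origin and fork lists (27.3% and 29%), CHR letters in the mitotic list (52.2%) and the interferon-stimulated response element (ISRE) in the interferon list (61.1%).

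The lists of the respiratory chain had medians between 0.18 and 0.55, and complexes II and III had a share of higher genes like that of all genes (22.5%). Of 37 nuclear genes of complex I 21 rose and 2 fell (median 0.32), of 14 genes of complex IV and cytochrome c 8 rose and none fell (median 0.55), and of 16 ATP synthase genes 10 rose and none fell (median 0.34), while complexes II and III had 3 of 13 higher and 1 lower (median 0.18). None of these genes passed 2-fold. COX8A, a small subunit of cytochrome c oxidase, read 5.70 and 5.38 in shControl and 6.53 and 6.49 in shBEX2-2 cells, a log2 fold change of 0.97 with a standard error of 0.12 (adjusted p = 0.0011 by limma). NDUFA2 of complex I went from 3.49 and 3.32 to 4.39 and 4.24 (log2 fold change 0.91), cytochrome c itself, CYCS, rose by 0.70, and ATP5MC1, a gene of the membrane ring of ATP synthase, by 0.78. The complex I gene NDUFA13 fell by 0.41. The catalytic ATP synthase genes ATP5F1A (-0.22) and ATP5F1B (-0.03) did not pass the test. The complex I count ranged from 8 to 24 genes over 13 of the alternatives, and the ATP synthase count from 4 to 10, while none of the genes of complex I, complex IV or ATP synthase passed as higher with the spread shared over 8 arrays or with shNontarget as control.

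Mitochondrial ribosome genes had a like shift, with 39 of 76 higher and 6 lower (median 0.26), MRPS17 at the top (0.92) and MRPL10 at the bottom (-0.71). Of the cytosolic ribosomal protein genes 25 of 79 were lower, where 23.4% of all genes were, and 1 was higher (median -0.22). RPL3 fell by 0.82, and RPS26 was the gene that rose, with a log2 fold change of 0.86. The count of lower cytosolic genes ranged from 4 to 62 over 13 of the alternatives and was 0 in the other 2 (the spread shared over 8 arrays, and shNontarget as control), so that it depends on the processing.

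Genes of proteins linked to BEX2 in mitochondria and in protein turnover had small changes. TUFM, the mitochondrial translation elongation factor, read 3.58 and 3.51 in shControl and 3.51 and 3.57 in shBEX2-2 cells, which overlapped (log2 fold change -0.005, adjusted p = 0.962 by limma). The mitochondrial chaperonin genes HSPD1 and HSPE1 rose by 0.26 and 0.93, and the dehydrogenase gene IVD and the peroxisomal reductase gene PECR by 0.29 and 0.60. Among mitochondrial biogenesis and translation factors 7 of 23 rose and 7 fell (median -0.0047), with the rRNA methyltransferase TFB1M at -0.52. CUL2, a scaffold of ubiquitin ligases, read -1.84 and -1.41 in shControl and -2.14 and -2.11 in shBEX2-2 cells, a log2 fold change of -0.49 with a standard error of 0.15 (adjusted p = 0.0386 by limma), which lay 0.84 above that of shBEX2-1 cells (adjusted p = 0.0106 by limma). Its receptor FEM1B (0.19) and the transcription factor USF2 (0.10, other probe -0.19) did not pass the test. In the CUL2 ligase list 5 of 13 rose and 2 fell, LRR1 the most at 1.75.

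Genes of the ATF4 response, which supplies amino acids and restrains growth under stress, were lower. Of 30 genes 26 fell, 17 of them past 2-fold, and 1 rose, with a median of -1.05, against 23.4% of all genes lower and 4.94% past 2-fold. ASNS, asparagine synthetase, read 5.25 and 5.20 in shControl and 2.89 and 2.88 in shBEX2-2 cells. The groups were far apart, with a log2 fold change of -2.34 with a standard error of 0.06 (adjusted p = 1.88e-05 by limma). NUPR1, a small stress-induced chromatin protein, went from 0.36 and 0.19 to -3.38 and -3.12, a log2 fold change of -3.53 with a standard error of 0.12 (adjusted p = 1.91e-05 by limma). PHGDH, the entry to serine synthesis, fell by 2.19, the glutathione-degrading enzyme CHAC1 by 1.99, the cystine transporter gene SLC7A11 by 1.18 and DDIT3 (CHOP) by 1.72. ATF4 mRNA itself went from 7.07 and 7.04 to 6.29 and 6.18 (log2 fold change -0.82, adjusted p = 0.000652 by limma), although the factor is controlled mainly by translation. ATF5 was the gene that rose (0.69), and the amino acid transporter gene SLC38A2 did not pass the test (-0.02). Across 13 of the alternatives between 24 and 26 members fell, against 18 with the spread shared over 8 arrays and 0 with shNontarget as control.

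Cytosolic aminoacyl-tRNA synthetases, which charge tRNAs and include ATF4 targets, had 13 of 20 genes lower, 6 past 2-fold, and 3 higher (median -0.57). CARS1 read 0.33 and 0.33 in shControl and -0.96 and -0.90 in shBEX2-2 cells (log2 fold change -1.27, adjusted p = 6.65e-05 by limma), and GARS1, IARS1, SARS1 and AARS1 fell by 1.23, 1.16, 1.14 and 1.09 (other IARS1 probes -0.64 and -0.92). The genes that rose were FARSA (0.38), HARS1 (0.32) and RARS1 (0.25). Chaperones of the endoplasmic reticulum, under ATF6 and XBP1 rather than ATF4, did not move with these lists, as 12 of 20 rose and 4 fell (median 0.32), with SDF2L1 and MANF at 1.18 and 0.99 and XBP1 at -0.72. Letters of the C/EBP-ATF element (TGATGNAAN) were in 3 of 25 promoters of the ATF4 list (12%) and 2 of 16 of the synthetases (12.5%), against 1.55% of all tested genes. The windows of the 2 genes of the ATF4 list with the largest fall that hold them are shown, with the element in capitals.
ASNS (chr7:97872443-97872502, minus strand): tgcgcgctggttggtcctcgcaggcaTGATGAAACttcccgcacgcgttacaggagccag
CHAC1 (chr15:40953235-40953294, plus strand): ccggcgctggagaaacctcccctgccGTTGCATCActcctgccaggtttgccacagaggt

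**Figure D3:**
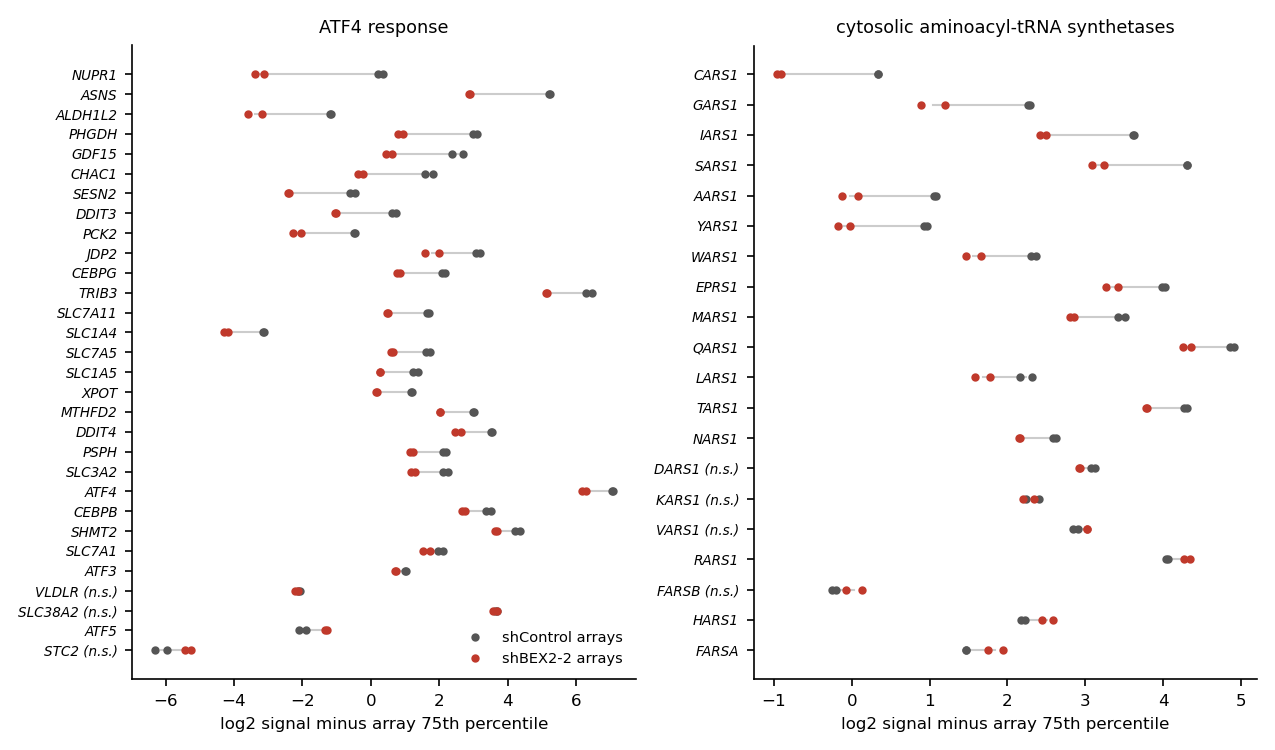
Normalised signal (log2 intensity minus the array's 75th percentile) of 30 ATF4-response genes and 20 cytosolic aminoacyl-tRNA synthetase genes on the 2 shControl arrays (grey points) and the 2 shBEX2-2 arrays (red points), ordered by log2 fold change; lines join the group means and n.s. marks genes with an adjusted p of at least 0.05. For 26 ATF4-response genes and 13 synthetase genes the red points lie left of the grey ones past the test.

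Interferon-stimulated genes were lower in shBEX2-2 cells and this set them apart from the first hairpin. Of 46 genes 39 fell, 21 of them past 2-fold, and 2 rose, with a median of -0.96, while with the spread shared over 8 arrays 15 fell and with shNontarget as control none passed the test. IFI44L read 0.27 and 0.74 in shControl and -3.66 and -3.18 in shBEX2-2 cells, a log2 fold change of -3.92 with a standard error of 0.21 (adjusted p = 5.38e-05 by limma). MX2, a dynamin-like antiviral GTPase, went from 0.64 and 0.92 to -3.13 and -3.06 (log2 fold change -3.87), and its relative MX1 fell by 2.49. RSAD2 (viperin) had -1.93 and -1.71 in shControl cells and was not well above background on either shBEX2-2 array. By the fit RSAD2 was 17.9-fold lower there (limma, adjusted p = 5.88e-05). CMPK2, its neighbour in the genome and a nucleotide kinase of the same response, went from -1.52 and -1.28 to -4.83 and -4.75 (log2 fold change -3.39).

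The list also holds regulators of the pathway. IRF9, the DNA-binding part of the interferon-activated complex ISGF3, read -0.25 and -0.27 in shControl and -2.03 and -2.02 in shBEX2-2 cells (log2 fold change -1.76, adjusted p = 3.13e-05 by limma). RIGI, a sensor of viral RNA, fell by 0.88, IRF7 by 0.73 and the ubiquitin-like ISG15 by 0.63. OAS1 fell by 1.65, whereas OAS3, another oligoadenylate synthetase, and SP100, a protein of nuclear bodies, were the genes that rose (0.25 and 0.44). Letters of the interferon-stimulated response element (GAAANNGAA) were in 22 of 36 promoters of the list (61.1%), against 5.61% of all tested genes. They were also in 7 of 14 promoters (50%) of the MHC class I list, which did not fall as a group. That list also holds CD274, whose promoter is among the 7. The letters of different motifs can share bases, since GAAA opens this element and ends the reverse complement of the E2F letters TTTCCCGC and TTTCGCGC. The windows of IFI44L and of IFI6, whose log2 fold change was -2.47, are shown as genes with large falls, chosen after their values were seen, with the element in capitals.
IFI44L (chr1:78620258-78620317, plus strand): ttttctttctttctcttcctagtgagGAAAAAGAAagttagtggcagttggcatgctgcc
IFI6 (chr1:27672315-27672374, minus strand): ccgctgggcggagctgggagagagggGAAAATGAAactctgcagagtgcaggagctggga

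The sublines differed at these genes by their own test. Set against shBEX2-1 by limma, 42 of the 47 list genes that could be tested were lower in shBEX2-2 and none was higher, with a median of -1.29, where 6.5% of all 20795 genes tested were lower and 6.58% higher. IFI44L read 0.20 and 1.45 on the shBEX2-1 arrays, so that it differed by -4.24 in shBEX2-2 (adjusted p = 0.00154 by limma), and MX2, with -0.03 and 1.17, differed by -3.66. For 45 of 46 genes both shBEX2-1 arrays were above both shBEX2-2 arrays. The mean of the shBEX2-1 arrays was above that of the shControl arrays for 39 of the 46 genes, both shBEX2-1 arrays lay above both shControl arrays for 20 of them and below both for 3. The shBEX2-2 arrays enter both comparisons, so that these are not independent. Between shBEX2-2 and shControl 73.6% of all genes did not overlap. That share is not given here for shBEX2-1, so that the counts of genes without overlap are descriptions.

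**Figure D4:**
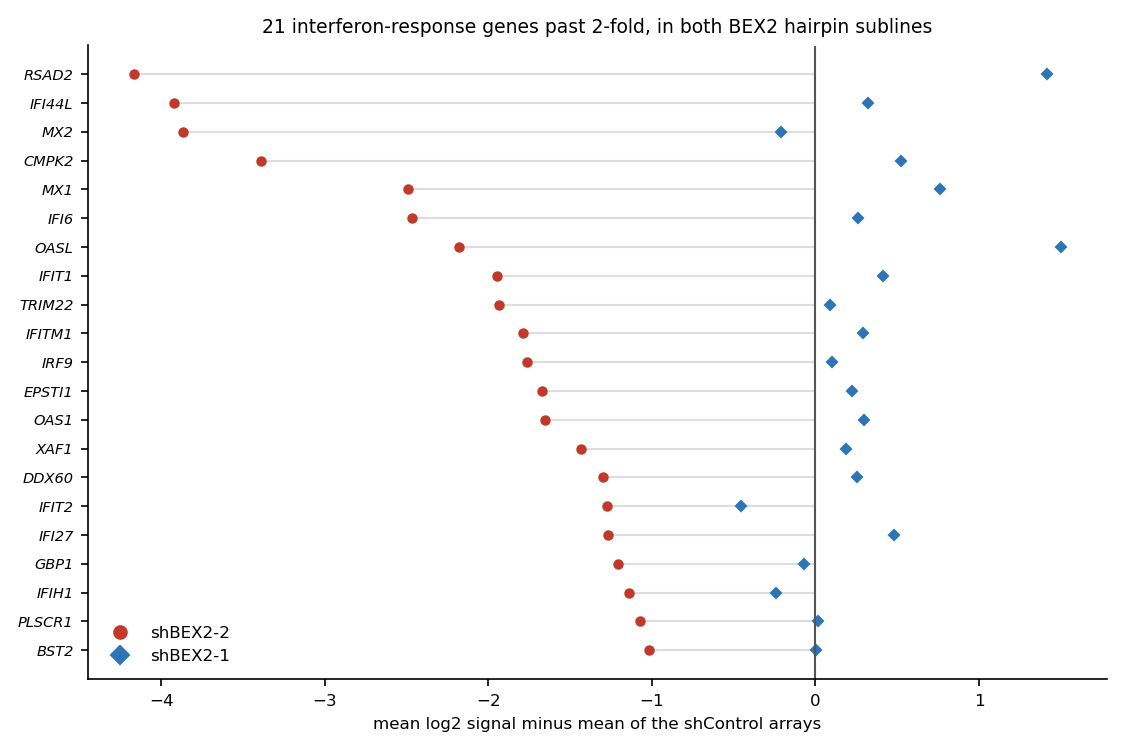
Mean log2 signal of the 21 interferon-response genes that fell past 2-fold, in shBEX2-2 cells (red circles) and shBEX2-1 cells (blue diamonds), each minus the mean of the 2 shControl arrays (vertical line at 0), n = 2 arrays per group; the shBEX2-2 value of RSAD2 was not well above background. The genes are those chosen for low red circles, and blue diamonds lie right of the line for 17 of the 21.

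The list of MHC class I presentation, which also holds CD274, split, with 7 of 17 lower and 5 higher (median -0.15). CD274 is not itself a presentation gene and is counted among the 5. B2M, the light chain of these molecules, fell by 0.44 and HLA-F by 0.78, and HLA genes share sequence that may not be told apart by a probe. CD274 (PD-L1), the immune checkpoint ligand, rose in the same cells, from -1.26 and -1.39 in shControl to 0.49 and 0.41 in shBEX2-2, a log2 fold change of 1.78 with a standard error of 0.08 (adjusted p = 3.42e-05 by limma). Its other probe read 1.19, and CD274 lay 0.40 above shBEX2-1 cells (adjusted p = 0.0452 by limma). CIITA, the activator of MHC class II genes, was not well above background in shControl cells and was at least 9.93-fold higher in shBEX2-2 cells (limma, adjusted p = 0.000161).

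Chemokines and cytokines moved both ways, with 12 of 24 higher and 6 lower, 6 and 4 of them past 2-fold (median 0.23). IL1B, a main inflammatory cytokine, read 0.08 and 0.13 in shControl and 1.75 and 1.86 in shBEX2-2 cells (log2 fold change 1.70, adjusted p = 2.74e-05 by limma). IL11 rose by 1.67, the neutrophil attractants CXCL3 and CXCL2 by 1.51 and 1.48, and IL6 by 1.00. TNFSF10 (TRAIL), a death ligand that interferon induces, went from 1.47 and 1.53 to -0.33 and -0.47 (log2 fold change -1.90), and the monocyte attractant CCL2 fell by 1.34. In the acute phase list 7 of 25 rose and 7 fell, against 22.5% of all genes higher and 23.4% lower. SAA2, serum amyloid A2, read 2.06 and 1.85 in shControl and 5.18 and 4.98 in shBEX2-2 cells, and SAA1 rose by 2.45, but the other SAA2 probe read 1.98 and the paralogs are near-identical, so that their values are uncertain.

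**Figure D5:**
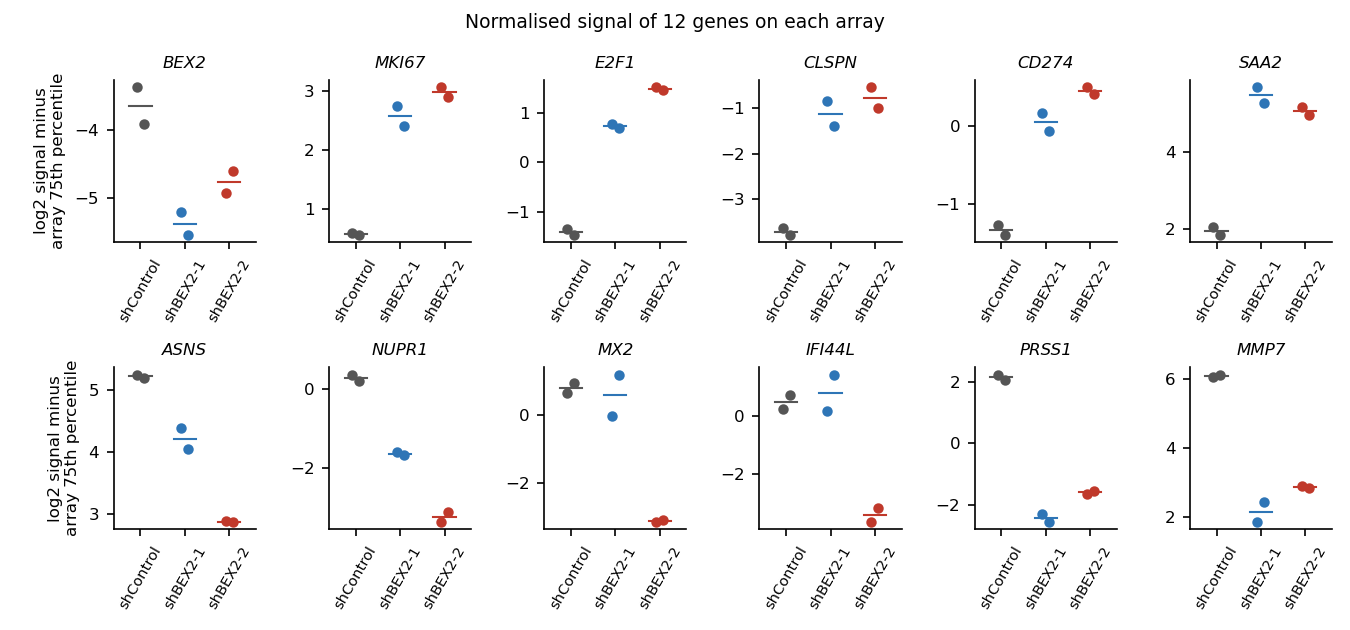
Normalised signal (log2 intensity minus the array's 75th percentile) of 12 genes on each array of shControl (grey), shBEX2-1 (blue) and shBEX2-2 (red) cells; points are arrays (n = 2 per group), lines are group means, and each panel has its own axis. BEX2 is lower and MKI67, E2F1, CLSPN, CD274 and SAA2 are higher in both knockdown sublines than in shControl, ASNS, NUPR1, PRSS1 and MMP7 are lower in both, and MX2 and IFI44L are low in shBEX2-2.

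In energy metabolism 22 of 31 glycolysis and hypoxia genes rose and 7 fell, 3 and 4 of them past 2-fold (median 0.38). For this and the next lists the shares of all genes were 22.5% higher and 23.4% lower. LDHA, lactate dehydrogenase, read 4.23 and 4.28 in shControl and 5.33 and 5.50 in shBEX2-2 cells (log2 fold change 1.16, adjusted p = 0.000156 by limma), and the enolase gene ENO2 rose by 1.19. Other members of the list fell, as the angiogenic factor VEGFA went from 2.10 and 2.07 to 0.45 and 0.33 (log2 fold change -1.69) and the glucose transporter gene SLC2A3 and the demethylase gene KDM3A fell by 1.80 (other probe -1.13) and 1.46. Cholesterol synthesis had 12 of 25 higher and 5 lower (median 0.21), none past 2-fold, with SREBF2, a regulator of the pathway, at -0.48. Of the NRF2 antioxidant genes 8 of 20 rose and 3 fell (median 0.27), with thioredoxin reductase TXNRD1 at 1.45, and the efflux pump ABCC3 fell by 1.76 (other probe -1.09). Against shNontarget the median of this list had the other sign (-0.08, 9 of 20 genes above 0). In the metallothionein list 7 of 11 genes rose (median 0.44), with 0.64 for MT1E and 0.53 for MT2A, which share sequence, and the gene that fell was that of their activator MTF1 (-0.26). Against shNontarget the metallothionein median had the other sign too (-0.21), as had MT1E (-0.16). Letters of the sterol regulatory element (TCACNCCAC) were in 1 of 18 promoters of the cholesterol list, against 0.904% of all. Heat shock genes had 6 of 17 higher and none lower (median 0.16), and p53 targets 8 higher and 8 lower of 25 (median 0.0037), with MDM2 at 0.63 and BBC3 (PUMA) at -1.24.

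Of 16 keratins 8 fell and 4 rose (median -0.32), where 23.4% of all genes were lower and 22.5% higher. KRT7 and KRT19, the keratins of bile ducts, did not pass the test, with log2 fold changes of -0.05 and 0.01. KRT17 read 0.30 and 0.22 in shControl and -2.12 and -2.07 in shBEX2-2 cells, a log2 fold change of -2.36 with a standard error of 0.08 (adjusted p = 1.91e-05 by limma). KRT14 and KRT23 fell by 2.48 and 2.79. KRT6A was not well above background in shControl cells and was at least 4.01-fold higher in shBEX2-2 cells. Of the bile duct markers, the chloride channel CFTR went from 0.66 and 0.80 to -1.07 and -1.02 (log2 fold change -1.77), although with shNontarget as control its value had the other sign (0.26, adjusted p = 0.788 by limma). The water channel AQP1 fell by 2.09 (other probe -0.72), while EPCAM and SOX9 were at 0.02 and -0.20, not past the test.

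In lists of adhesion and protease genes more members passed the test as lower than as higher against shControl. Of all genes 23.4% were lower and 22.5% higher, and some counts below are near these shares. With shNontarget as control the medians of the protease list (0.03, against -0.29) and of the junction list (0.07, against -0.16) had the other sign. Of 20 integrin and laminin genes 10 fell and 2 rose (median -0.27). ITGB8, which activates TGF-beta, read 1.03 and 1.25 in shControl and -1.17 and -1.05 in shBEX2-2 cells (log2 fold change -2.26, adjusted p = 2.81e-05 by limma), and ITGB3 was not well above background in shBEX2-2 cells and at least 17.5-fold lower there. MMP7, matrilysin, went from 6.07 and 6.12 to 2.89 and 2.83, a log2 fold change of -3.23 with a standard error of 0.07 (adjusted p = 1.88e-05 by limma), while the collagenase gene MMP1 rose by 1.09. Of the metalloproteinase list 6 of 12 fell and 4 rose. PRSS1, cationic trypsinogen, went from 2.23 and 2.05 to -1.64 and -1.56 (log2 fold change -3.74), and PRSS2, a paralog which a probe may not tell apart, fell by 1.72, with 8 of 18 protease genes lower and 2 higher. Mucins had 4 of 10 lower and none higher (median -0.33), MUC20 the most at -2.07. Of 22 junction genes 9 fell and 4 rose, and of 16 mesenchymal genes 7 fell and 5 rose, with VIM at 0.05 and CDH2 at -0.08, neither past the test, and SNAI1 at 0.78.

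In growth factor signalling, TGF-beta and activin genes had 7 of 17 lower and 3 higher (median -0.20). The counts of these lists stand beside 23.4% of all genes lower and 22.5% higher. The latent TGF-beta binding gene LTBP2 read -1.35 and -1.09 in shControl and -3.62 and -3.57 in shBEX2-2 cells (log2 fold change -2.37, adjusted p = 5.51e-05 by limma), and the inhibitory SMAD6 and SMAD7, both targets of the pathway, fell by 1.74 and 0.99. FST, follistatin, rose by 1.06. Notch genes had 7 of 18 lower and 2 higher, with the targets HES1 and HEY1 at -1.70 and -1.63 and the receptor gene NOTCH4 at 1.43. Of the ERBB and MAPK list 12 of 26 fell and 7 rose (median -0.12), with the immediate early gene EGR1 at -1.03 and the ligand NRG1 at 1.46. EGF was not well above background in shControl cells and at least 2.81-fold higher in shBEX2-2 cells.

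Stem cell and aldehyde dehydrogenase genes had a median near 0. Counts of this list and of the gemcitabine list stand beside 22.5% of all genes higher and 23.4% lower. The study assayed the enzyme activity of aldehyde dehydrogenase, which was lower in its BEX2-knockdown lines. Arrays read mRNA and not that activity. ALDH1A3, an enzyme of retinoic acid synthesis, read 5.44 and 5.44 in shControl and 5.51 and 5.46 in shBEX2-2 cells, a log2 fold change of 0.04 (limma, adjusted p = 0.661), and ALDH1A1 was well above background on no array. Of 22 genes of the list 8 fell and 1 rose (median -0.0081), with ALDH3B1 at -1.42 (other probes -0.50 and -1.15), CD24 at -0.80 and PROM1 (CD133) at -0.62. NANOG was not well above background in shBEX2-2 cells and at least 4.60-fold lower there, and it has pseudogene copies of near-identical sequence. For gemcitabine, the nucleoside drug used in this cancer, the uptake transporter gene SLC29A1 read -0.01 and 0.04 in shControl and 1.48 and 1.50 in shBEX2-2 cells (log2 fold change 1.47, adjusted p = 2.98e-05 by limma), the activating kinase DCK rose by 0.53 and the inactivating deaminase CDA by 0.62, in a list with 6 of 15 higher and 2 lower.

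Some of the largest changes lay outside the lists. SPINK4, a protease inhibitor of the gut, read -2.65 and -2.68 in shControl and 0.67 and 0.59 in shBEX2-2 cells, a log2 fold change of 3.29 with a standard error of 0.08 (adjusted p = 1.88e-05 by limma). GJC1 (connexin 45) went from -2.22 and -2.25 to 0.95 and 1.00 (log2 fold change 3.21), and FAM25A from -1.93 and -1.99 to 1.26 and 1.23 (log2 fold change 3.20). C4orf22, now CFAP299, rose by 2.96, NRGN (neurogranin), a calmodulin-binding protein of neurons, by 2.88, and the chloride channel ANO2 by 2.85. The largest falls besides those above were in NKAIN4, STRA6 and SORCS2. NKAIN4, which binds the sodium pump, went from 0.43 and 0.77 to -3.20 and -3.14 (log2 fold change -3.77), and its other probe read -4.34. STRA6, the receptor for vitamin A transport, went from 3.12 and 3.26 to -0.31 and -0.31 (log2 fold change -3.50), but its other probe read -0.87, and SORCS2, a sorting receptor, fell by 3.39.

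More genes were seen in shBEX2-2 cells alone than in shControl cells alone. The shBEX2-2 arrays also had slightly more spots well above background (63.5% and 63.9%, against 62.3% and 63.2%). Such genes entered the filter only through the group where they were seen, so that their direction and calls follow from that choice. Of the genes tested, 552 were well above background on both shBEX2-2 arrays and no shControl array, and 262 of them passed the test, while 196 were so on both shControl arrays and no shBEX2-2 array, of which 163 passed. ADAM11, a protease relative without a working catalytic site, was at least 20.1-fold higher in shBEX2-2 cells, where it read -1.44 and -1.36 (its other probe read 1.57). MUCL3, named DPCR1 on the array and of the mucin type, and the zinc finger gene ZNF367 had bounds of 14.2-fold and 9.80-fold higher. These too equal the fitted folds. HBB (beta-globin) was at least 12.6-fold higher. The largest bounds the other way were those of the unnamed probe A_33_P3258561 (at least 37.5-fold lower) and of C21orf49, now EPCIP-AS1 (at least 23.2-fold lower). C21orf49 read -4.48 and -0.36 on the shControl arrays, so that its bound rests on shControl replicate 2. The transcript ENST00000398819 had a bound of 17.4-fold lower, which equals its fitted fold.

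Cell cycle genes lay higher in shBEX2-2 than in shBEX2-1 cells. Against shBEX2-1, 34 of 55 mitotic, 17 of 26 origin and 15 of 35 fork genes were higher in shBEX2-2 and none was lower, with medians of 0.39, 0.45 and 0.31, and 13 of 29 ATF4 genes were lower and 1 higher (median -0.29). Of all genes tested 6.58% were higher and 6.5% lower. In all 2721 differed, 50.3% of them higher, with 412 past 2-fold. With a replicate block 6222 differed, and with normexp correction 4373, of which 34.4% were higher. Without shBEX2-2 replicate 2 or 1 the count was 403 or 521, and without shBEX2-1 replicate 2 or 1 it was 5538 or 3366. The 5 largest differences upward were in INHBB, IL11, DPCR1 (now MUCL3, 2.08), ADAM11 (2.05) and CSF1R. INHBB, a subunit of activin B, read -1.91 and -1.64 in shBEX2-1 and 0.79 and 0.52 in shBEX2-2 cells (difference 2.43, adjusted p = 0.000379 by limma), close to its 0.35 and 0.28 in shControl cells. IL11 read -2.22 and -1.89 in shBEX2-1 and 0.34 and 0.31 in shBEX2-2 cells (difference 2.38, adjusted p = 0.000374 by limma). CSF1R, the receptor of a macrophage growth factor, differed by 1.86. By the same test 3 of 37 complex I genes were lower, against 6.5% of all genes, and none was higher, with a median of -0.09.

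The choice of control vector mattered for the test. The 2 shNontarget arrays differed from each other by more than 1 on the log2 scale for 7396 genes, against 497 for shControl and 168 for shBEX2-2. With shNontarget as control no gene passed by limma after adjustment, and 2187 had an unadjusted p under 0.05. The medians of the replication, mitosis, ATF4 and interferon lists kept their sign there, at values of 1.55 for origin licensing (25 of 26 genes above 0), 1.28 for the mitotic list (55 of 55), -1.22 for the ATF4 list (3 of 30 above 0) and -0.57 for the interferon list (6 of 45 above 0). The medians of complex I (0.15) and ATP synthase (0.16) were small on that scale. Of the 160 genes that the selection rule took, that passed the test against shControl and that could be set against shNontarget, 154 had the same sign there, for example E2F1 at 2.34, NUPR1 at -3.42 and MX2 at -2.64. The 6 with the other sign were CFTR, the metallothionein genes MT1E and MT1B (-0.21), the tight junction gene CLDN2 (1.02, against -1.50), the integrin gene ITGB6 (0.22, against -0.90) and the mucin gene MUC4 (0.29, against -1.16). The MUC4 value is uncertain, as its other probes read -0.35, -0.086 and 0.059 against shControl. Medians also had the other sign for the acute phase (0.23, against -0.12), stem cell (0.05) and BEX and TCEAL (-0.05) lists. With the spread shared over 8 arrays 53 of 55 mitotic and 21 of 26 origin genes passed as higher, and none of the glycolysis or mitochondrial ribosome genes did.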

How the data were processed

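The authors hybridized Cy3-labelled total RNA of HuCCT1 sublines to single-colour Agilent arrays on 1 slide, read with Feature Extraction 10.7.3.1 (submitters' processing notes). The deposited processed intensity has the background taken off and spatial trends removed by that software, low spots carry a stand-in value, and arrays were not made comparable. The deposited series table holds the same intensity and differed by at most 0.497%. No column stayed unmapped.

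Groups came from sample titles. Without control spots and non-uniform spots, log2 intensity minus each array's 75th percentile was averaged over a probe's spots. A gene name was represented by its brightest probe among those seen well above background in 2 or more of the 4 arrays. Of 34809 names, 20068 matched a current RefSeq symbol by accession, symbol or synonym, as did 14015 of the 20970 tested. The comparisons with shControl and with shBEX2-1 used limma 3.58.1 (lmFit, eBayes with a variance trend, Benjamini-Hochberg adjustment, threshold 0.05) in R 4.3.3, without the shNontarget arrays. The rank product of the study's methods was not used. The fit was also run on simulated arrays with few genes changed, unlike these data, which gives no measure of its error here. A fold is a bound where all arrays of 1 group left the probe not well above background. The mean of the other group was then set against the dim group's, with each dim array raised to the lowest signal of its well-above-background probes where the probe was below that. Where no dim array was raised, the bound equals the fitted fold. A bound takes no account of the spread between arrays. Letters were searched in Python 3.11.15 and figures drawn with matplotlib 3.10.9.

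The genes compared and the lists were chosen with earlier results of these data known. The rule named the BEX genes and those the study examined, cell cycle regulators, the 10 largest rises and falls among called, non-overlapping genes seen on all 4 arrays, the 5 largest bounds each way, the 3 largest called changes of each list, and the 5 largest differences each way between the hairpins. Further members are given for their role and were chosen after their values were seen. Alternatives were quantile normalization, normexp correction (offset 50), the series table, other filters, the mean of a gene's probes, a replicate block, models with more arrays, shNontarget as control, each array left out, no variance trend, a 2-fold minimum and the methods' t-test. The small number of arrays limits the precision. Some genes of the lists are counted but not reported by name here.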

Additional observations from a re-analysis of the deposited data

Results flagged for a closer look

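Results were marked where shBEX2-2 and shBEX2-1 cells differed by their own limma test, and the value is the log2 signal of shBEX2-2 minus that of shBEX2-1 (2 arrays each).

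Interferon-stimulated genes were lower in shBEX2-2: RSAD2 (-5.58), IFI44L (-4.24), CMPK2 (-3.91), OASL (-3.68), MX2 (-3.66) and MX1 (-3.26). RSAD2 was not well above background in shBEX2-2 cells, so that its difference is a fitted value. Higher in shBEX2-2 were E2F2 (1.38), E2F1 (0.75), ZNF367 (0.89), CD274 (0.40), CCND1 (0.45) and CUL2 (0.84), of which CUL2 was lower and CCND1 not past the test against shControl. Also higher were INHBB (2.43), IL11 (2.38), DPCR1 (2.08), ADAM11 (2.05) and CSF1R (1.86), the genes with the largest differences in that direction.

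Among the largest rises against shControl, NRGN (1.17), GJC1 (0.97), SPINK4 (0.60), FAM25A (0.50) and C4orf22 (0.49) were further up in shBEX2-2. Among the largest falls, ITGB3 (-2.05), NUPR1 (-1.61), NKAIN4 (-1.42), STRA6 (-0.66) and HIST1H2AC (-0.48) were further down, with the caution on other probes for STRA6 and HIST1H2AC, and ITGB3 was not well above background in shBEX2-2 cells. MMP7 (0.72) and PRSS1 (0.83), also among the largest falls, were higher in shBEX2-2 than in shBEX2-1. BEX5 and ALDH1A3, which did not pass the test against shControl, were lower in shBEX2-2 than in shBEX2-1 (-0.48 and -0.44). The cause of these differences was not tested, and each hairpin is 1 subline.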

How the results depend on the processing

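With 9637 genes called, the count was 1553 when the spread was shared with shBEX2-1 and shNontarget (8 arrays), 0 with shNontarget as control (2187 at an unadjusted p under 0.05), 2184 with an added log2 fold change of at least 1, and 2647 by the methods' t-test after Benjamini-Hochberg adjustment (8380 before it). Leaving out each array gave 6557 to 9594, and 10736 genes passed with a replicate block. BEX2 kept its direction throughout, but lost the threshold with normexp correction (-0.39), no filter on dim probes (-1.12, adjusted p = 0.0592 by limma), the 8-array spread (-1.12, adjusted p = 0.202 by limma) and shNontarget as control (-1.52, adjusted p = 0.437 by limma). Leaving out each array gave -1.40 to -0.85, the call being lost without shBEX2-2 replicate 1.

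Between the hairpins 2721 genes were called, 4373 with normexp correction (34.4% of them higher, against 50.3%), 6222 with a replicate block, and 403 to 5538 with each array left out (403 without shBEX2-2 replicate 2, 521 without shBEX2-2 replicate 1, 5538 without shBEX2-1 replicate 2). Arrays of the same number share a day in the deposited file names, with no word on what was done then. Replicate differences correlated across genes by 0.061 between shControl and shBEX2-2, 0.107 between shControl and shBEX2-1 and 0.198 between the hairpins. With 2 numbers and no stated link, the numbers were not taken to pair the arrays. The cause of these shifts was not tested.

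Of 38 single genes called besides BEX2 and followed, 34 kept direction and call in those of 13 alternatives where they were tested. Genes not well above background in 1 group dropped out of some of the 13 alternatives, so that these did not test them. C21orf49, CUL2, HSPD1 and IVD lost the call in some, and 33 of the 38 kept it with the 8-array spread. With shNontarget as control the sign turned for CFTR (0.26), MT1E (-0.16), MT1B (-0.21), CLDN2 (1.02), ITGB6 (0.22) and MUC4 (0.29), all called against shControl. Among the genes followed through the alternatives, signs turned for ones that were not called: NGFRAP1 (-0.074 with quantile normalization, -0.044 with shNontarget as control), BEX5 (-0.013), FEM1B (-0.11) and USF2 (-0.16) with shNontarget as control, USF2 with the mean of probes (-0.044), and CDKN1B with quantile normalization (-0.0389) or shNontarget as control (-0.21). With each array left out TUFM ranged from -0.0385 to 0.029 and CDKN1B from -0.040 to 0.11. With no filter on dim probes the median of all genes was -0.11, to which changes in that fit are relative. Dim probes such as BEX2 limit what these arrays can show.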
